A study of Mus musculus with 4 samples.

Results

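The data compared here are a pair of control libraries from cultured heart muscle cells, 1 from cells given the control mimic cel-miR-67 and 1 from mock-transfected cells, out of 4 libraries in the study. Reads of all transcript records of a gene symbol were summed and scaled to counts per 1000000 reads of the library (CPM), and a gene was kept when its mean over the 2 libraries was at least 1 CPM. This left 13380 of 27207 genes. All 4 cultures were cardiomyocytes of CD1 mice at postnatal day 1, and RNA was taken 72 h after transfection. The mimics were given at 50 nM with Lipofectamine RNAiMAX by reverse transfection, in which cells are plated onto the reagent mix. The other 2 libraries, 1 from cells given hsa-miR-590-3p and 1 from cells given hsa-miR-199a-3p, are quoted only to show which control differed from the rest. The labels do not say what the mock mix contained, or whether cells of the 4 cultures came from the same litters or pools. There was 1 library per condition, so the differences have no replicate check, no p-value is given, and the treatment cannot be told apart from the culture dish, the RNA preparation or the library.

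A microRNA mimic is a short double-stranded RNA that is loaded into Argonaute proteins and represses transcripts that pair with its seed. cel-miR-67 is a worm microRNA used as a control because no mammalian counterpart is known, so it stands for the delivery of a small RNA without an intended target. Cells can also sense foreign RNA through receptors such as RIG-I, MDA5 and the Toll-like receptors of endosomes. These receptors act through adaptors and IRF transcription factors to switch on interferon genes. Secreted interferon then acts through its receptor, JAK kinases and transcription factors on a large set of interferon-stimulated genes, many of which block viruses. The comparison addresses what separates these controls, against which the other mimics can be read.

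Depth was similar, with 31638930 assigned reads in mock, 34255689 under cel-miR-67, 34452240 under hsa-miR-590-3p and 38745528 under hsa-miR-199a-3p. Between 67.6% and 68.7% of reads were placed uniquely. A count of 0 allows up to 0.0948 CPM in mock and 0.0876 CPM under cel-miR-67, taking 3 reads as the limit. Ribosomal RNA records held 0.812% of reads in mock, 0.375% under cel-miR-67, 0.637% under hsa-miR-590-3p and 0.369% under hsa-miR-199a-3p, and the part of this in the results was not tested, but totals without those records left 83 genes higher and 165 lower by 2-fold. The 95% intervals of ratios given below are exact (Clopper-Pearson) and reflect counting error alone, with each read taken as independent. They leave out differences between cultures and libraries. Reads amplified by PCR without molecular identifiers are not separate molecules, so the intervals may be too narrow even for counting error.

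The controls were alike for most genes. The median log2 ratio of cel-miR-67 over mock was 0.03, the robust SD over genes was 0.22, and 98.2% of genes lay within 2-fold and 93.3% within 1.5-fold. By 2-fold, 84 genes (0.628%) were higher and 163 (1.22%) lower under cel-miR-67. By 1.5-fold, 397 (2.97%) were higher and 498 (3.72%) lower. At or above a mean of 100 CPM there were 2028 genes, of which 2 were higher and 8 lower by 2-fold, 2 of the latter being ribosomal RNA records. The genes nearest the minimum of 1 CPM were Wdr78, just inside with 34 reads in mock and 32 under cel-miR-67, and Npcd, just outside with 18 and 49. The reference gene Gapdh, a glycolytic enzyme, had 3065 CPM in mock and 3024 under cel-miR-67, with 2.53% of its reads placed uniquely. Actb, cytoplasmic actin, had 2314 and 2746 CPM.

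**Figure D1:**
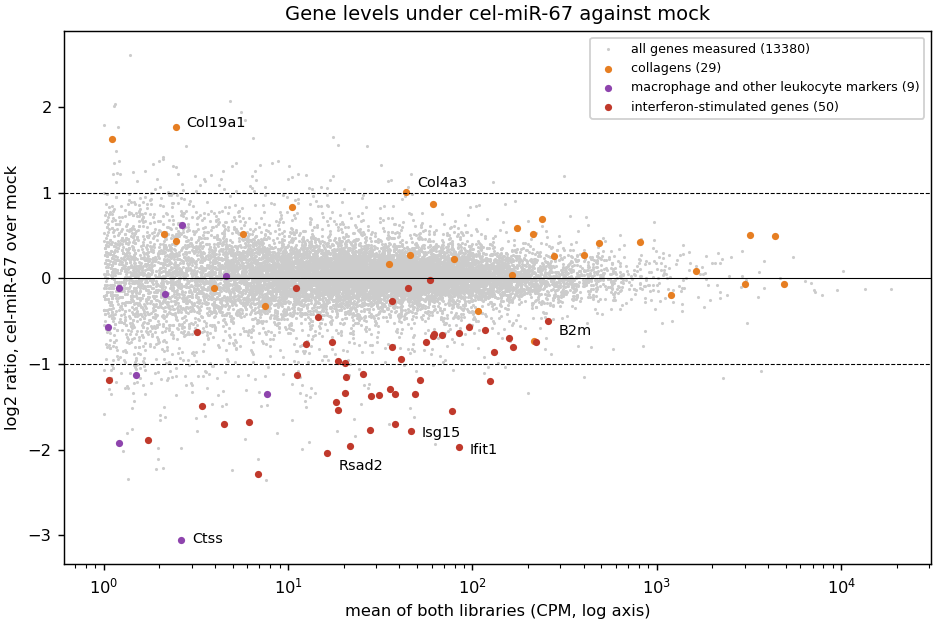
Log2 ratio of cel-miR-67 over mock (vertical) against the mean of both libraries in CPM (horizontal, log axis), 1 point per gene, for 13380 genes, with dashed lines at 2-fold. The 50 interferon-stimulated genes all lie below 0, 26 of them below the lower line, and most of the 29 collagen genes lie above 0.

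Of the 24 gene lists, the interferon-stimulated genes held the most members that were lower. Of 53 listed, 50 passed the minimum, 2 of them through the mock library alone, and all 50 were lower under cel-miR-67. By 2-fold 26 were lower, or 52.0%, where 1.22% of all genes were. By 1.5-fold 43 were lower, or 86.0%, where 3.72% of all genes were. None was higher by either fold. The list median was -1.12, where that of all genes was 0.03, and the summed level was 3373 CPM in mock and 1830 CPM under cel-miR-67. Of the 163 genes lower by 2-fold, 26 were on this list and 31 on this list or that of the RNA sensors. Several members are named below for their role in the pathway, outside the rule for named genes and with their values already seen. These are Isg15, Usp18, Stat2, Irf9, Psmb8, Psmb9, Psmb10, Tap1, H2-K1, H2-D1, Ifit2, Ifih1, Ddx58, Tlr3, Mavs, Tbk1, Irf3, Ifnar1, Ifnar2 and the interferon genes.

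Among the sensors, Ddx58, the gene of RIG-I, had 137 CPM in mock and 78.1 CPM under cel-miR-67, with 135 CPM under hsa-miR-590-3p and 114 CPM under hsa-miR-199a-3p. Ifih1, the gene of MDA5, had 50.8 CPM in mock and 20.7 CPM under cel-miR-67, with 43.2 and 23.8 CPM in the other libraries in the same order. Tlr3, an endosomal receptor for double-stranded RNA, had 12.3 and 7.85 CPM in mock and under cel-miR-67. The cel-miR-67 library was the lowest of the 4 for each of these sensors. The 2'-5' oligoadenylate synthetases, which activate the nuclease RNase L when they bind double-stranded RNA, were among the lowest. Oas1g had 100 reads in mock and 27 under cel-miR-67, a level 4.01-fold lower (2.60 to 6.38), and Oas1a had 653 and 188 reads, 3.76-fold lower (3.19 to 4.45). Oas1g passed the minimum through mock alone. Both come from a cluster of near-identical copies, with 45.3% and 47.1% of reads placed uniquely, so their counts are uncertain. With uniquely placed reads their log2 ratios were -2.08 and -2.06, beside -1.98 and -1.91 with all reads. Oasl2, a related protein, had 58.4 CPM in mock and 17.9 under cel-miR-67, 3.25-fold lower (2.97 to 3.57), with all of its reads unique.

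The adaptors and kinases downstream of the sensors named here were picked with their values seen. Mavs, the mitochondrial adaptor of RIG-I and MDA5, had 42.2 CPM in mock and 43.3 under cel-miR-67, Tbk1, the kinase that phosphorylates IRF3, 28.8 and 31.3, and Irf3 itself 31.4 and 34.6. Irf7, the interferon-inducible factor that amplifies the response, had 73.0 CPM in mock, 23.8 under cel-miR-67, 60.8 under hsa-miR-590-3p and 57.2 under hsa-miR-199a-3p. It was 3.06-fold lower than in mock (2.83 to 3.32), and the cel-miR-67 library stood alone at the low end. Dicer1, the nuclease that makes microRNAs, had 94.1 and 114 CPM. Of 31 listed sensors and adaptors 27 were measured, 1 of them through mock alone. Of these, 8 (29.6%) were lower by 2-fold and 14 (51.9%) by 1.5-fold, where 1.22% and 3.72% of all genes were. None was higher by either fold, and the median was -0.64.

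Transcripts of the interferons were at or near the limit of detection. Ifnb1 had 1 read in mock and 1 under cel-miR-67, Ifna4 had 2 and 0, Ifng had 0 and 1, and Ifna2 and Ifnl2 had 0 reads in all 4 libraries. The depth cannot show a difference for any of them. The receptor chains were measured well. Ifnar1 had 80.5 CPM in mock and 89.2 under cel-miR-67, Ifnar2 34.0 and 35.8, and Ifngr2, the chain with the highest level per length, 190 and 222. Jak2, a kinase on the interferon-gamma receptor, had 37.3 and 36.4 CPM, a log2 ratio of -0.03, which was 0.26 with its uniquely placed reads, 2.12% of the total. None of the 7 measured of 12 listed interferon and receptor genes differed by 1.5-fold, and their median was 0.07.

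Stat2 and Irf9 are transcription factors that answer to interferon. Stat2 had 83.5 CPM in mock and 52.9 under cel-miR-67, and Irf9 had 74.9 and 47.1 CPM. Usp18, a protease that removes ISG15 and damps receptor signalling, had 116 CPM in mock, 39.5 under cel-miR-67, 65.7 under hsa-miR-590-3p and 69.4 under hsa-miR-199a-3p. The 2 mimic libraries lay between the controls for Usp18.

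Effectors held the lowest ratios of the list. Ifit1, which binds foreign RNA ends, had 134 CPM in mock, 34.4 under cel-miR-67, 94.7 under hsa-miR-590-3p and 40.4 under hsa-miR-199a-3p. It was 3.91-fold lower than in mock (3.66 to 4.17), and the hsa-miR-199a-3p library was close to cel-miR-67 while hsa-miR-590-3p was nearer to mock. Ifit3, its partner protein, had 34.5, 8.85, 29.6 and 12.3 CPM in the same order and was 3.90-fold lower (3.43 to 4.44), with 47.1% of reads unique. Rsad2, viperin, which makes a chain-terminating nucleotide, had 833 reads in mock and 218 under cel-miR-67, or 26.3 and 6.36 CPM, and was 4.14-fold lower (3.56 to 4.83). Isg15, a ubiquitin-like modifier, had 72.2 CPM in mock, 20.9 under cel-miR-67, 55.2 under hsa-miR-590-3p and 45.1 under hsa-miR-199a-3p. In both Rsad2 and Isg15 the cel-miR-67 library lay more than 2-fold below each of the other 3. Bst2, tetherin, which holds budding virus at the cell surface, was among the most abundant lower genes, with 173 and 75.3 CPM and 2.30-fold lower (2.19 to 2.41). Tgtp1, an interferon-inducible GTPase, had the lowest ratio of the list, 361 reads against 80, but it shares sequence with Tgtp2 (258 against 59), and 12.8% and 13.1% of their reads were unique.

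Not every effector differed. Ifit2, from the same gene family as Ifit1, had 1474 reads in mock and 1478 under cel-miR-67, or 46.6 and 43.2 CPM, with 51.8 CPM under hsa-miR-590-3p and 30.1 CPM under hsa-miR-199a-3p. Ifi27, a mitochondrial protein, had 58.9 and 58.2 CPM, the highest ratio of the list, although it was -0.55 on the log2 scale with uniquely placed reads. Genes of antigen presentation spanned the range. Psmb8, an immunoproteasome subunit, had 6.86 CPM in mock, 2.10 under cel-miR-67, 7.66 under hsa-miR-590-3p and 10.4 under hsa-miR-199a-3p, while its partner Psmb10 had 39.9 and 33.2 CPM in the controls. Tap1, the peptide transporter, had 21.7 and 13.0 CPM, and the class I heavy chains H2-K1 and H2-D1 had 114 and 77.1 CPM and 141 and 92.4 CPM. B2m, the light chain of class I molecules and the member with the highest level per length (348 RPKM in mock, 247 under cel-miR-67), had 9445 and 7269 reads and was 1.41-fold lower (1.36 to 1.45).

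The promoters of 4 effectors with low ratios are shown because they hold a sequence known from promoters of such genes, the interferon-stimulated response element. The motif searched was GAAANNGAAA on both strands, so that TTTCNNTTTC counts too and overlapping matches are counted separately. Each line gives the 250 bases before the RefSeq start in GRCm38.p6, 5' to 3' on the strand of the gene, with matches in capitals. Ifit1 is chr19:34640639-34640888 on the plus strand, Ifit3 chr19:34583279-34583528 on the plus strand, Isg15 chr4:156200819-156201068 on the minus strand and Rsad2 chr12:26456453-26456702 on the minus strand.
Ifit1: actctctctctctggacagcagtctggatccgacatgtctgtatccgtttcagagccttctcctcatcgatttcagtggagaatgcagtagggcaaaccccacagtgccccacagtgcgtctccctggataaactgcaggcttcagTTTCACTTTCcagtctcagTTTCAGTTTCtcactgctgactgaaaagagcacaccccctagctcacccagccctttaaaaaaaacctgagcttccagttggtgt
Ifit3: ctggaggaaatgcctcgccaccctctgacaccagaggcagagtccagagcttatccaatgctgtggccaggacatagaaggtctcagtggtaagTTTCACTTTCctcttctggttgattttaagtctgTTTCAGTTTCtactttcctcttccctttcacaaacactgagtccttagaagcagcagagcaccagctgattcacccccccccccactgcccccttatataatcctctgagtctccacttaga
Isg15: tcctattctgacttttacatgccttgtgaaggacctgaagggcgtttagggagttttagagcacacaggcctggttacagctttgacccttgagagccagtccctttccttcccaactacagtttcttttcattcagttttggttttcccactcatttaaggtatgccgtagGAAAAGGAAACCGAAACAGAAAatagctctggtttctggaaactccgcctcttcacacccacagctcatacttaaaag
Rsad2: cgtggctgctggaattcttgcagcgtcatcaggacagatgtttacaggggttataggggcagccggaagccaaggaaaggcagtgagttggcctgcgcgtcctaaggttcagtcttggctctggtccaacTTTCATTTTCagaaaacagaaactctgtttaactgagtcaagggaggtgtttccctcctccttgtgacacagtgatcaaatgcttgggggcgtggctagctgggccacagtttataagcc

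Ifit1 and Ifit3 each hold 2 matches on the opposite strand, beginning 104 and 85 bases before the start in Ifit1 and 156 and 122 bases before it in Ifit3. Isg15 holds 3 overlapping matches on its own strand, 78, 72 and 66 bases before the start, and Rsad2 holds 1 on the opposite strand at 120 bases. Over windows of 300 bases, from 250 before to 50 after a start, 1131 of 32851 windows in the RefSeq table held a match, or 3.44%. Counted by gene, 371 of 10048 measured genes with a window held a match (3.69%). Of the 50 measured interferon-stimulated genes 38 had a window, and 17 of these (44.7%) held a match. The count was 11 of 18 for the members lower by 2-fold and 6 of 20 for the other members. Outside the list, 22 of 80 genes lower by 2-fold with a window held a match (27.5%), and 1 of 48 genes higher by 2-fold did (2.08%). Of 23 collagen genes with a window, 0 did. The 80 genes outside the list still include genes of the RNA sensor list, such as Irf7. In Ifit2, which has several starts in the table, no match was found. Irf7, 3.06-fold lower under cel-miR-67, also held no match in the 250 bases before its start. A match describes letters in a window and is not a measured binding site.

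**Figure D2:**
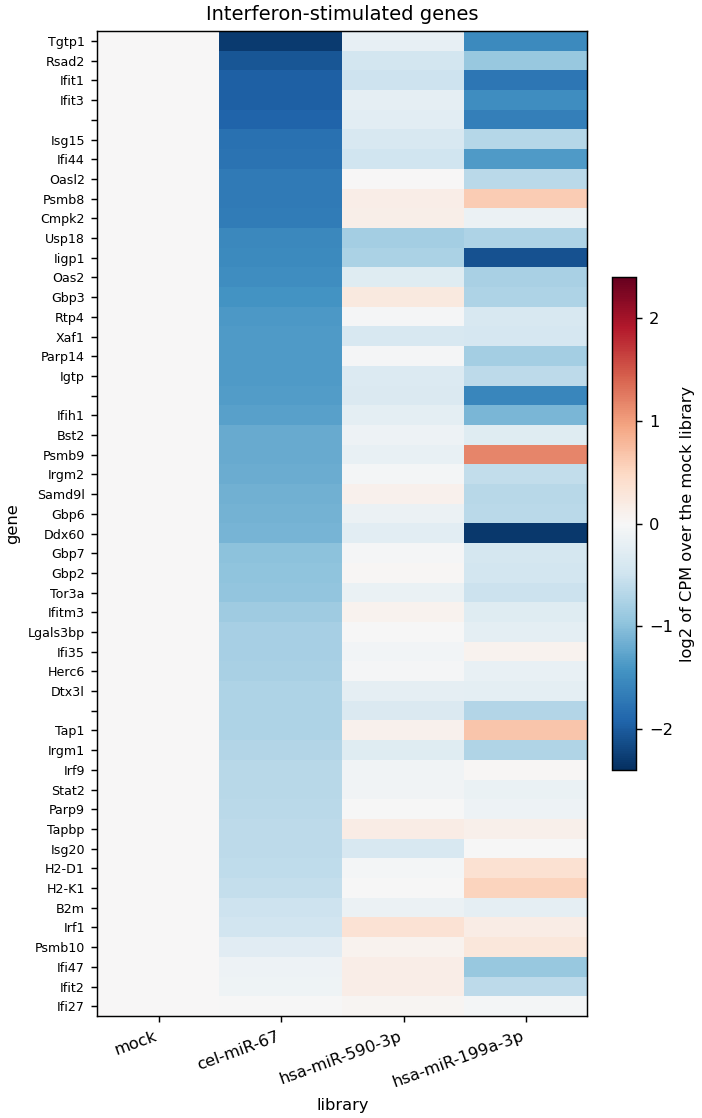
Log2 of the level in each library over the level in mock for the 50 measured interferon-stimulated genes (rows, 3 without a printed name), ordered by the cel-miR-67 ratio, with blue for lower and red for higher than mock. The cel-miR-67 column is blue or near white in every row, and the hsa-miR-199a-3p column holds both colours, with Psmb9 at 3.33 CPM against 1.49 in mock.

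Set beside the other libraries, cel-miR-67 was the lowest of the 4 in 43 of the 50 interferon-stimulated genes and hsa-miR-199a-3p in the other 7. Over all genes measured, cel-miR-67 was the lowest in 3313 of 13380, or 24.8%. Mock was the highest in 31 of the 50, or 62.0%, and in 14.4% of all genes. The summed level of the list was 3373 CPM in mock, 3062 under hsa-miR-590-3p, 2630 under hsa-miR-199a-3p and 1830 under cel-miR-67. Against mock, on CPM without a prior count, the list median of cel-miR-67 was -1.13. That of hsa-miR-590-3p was -0.08 and that of hsa-miR-199a-3p was -0.47, and these 3 values share the mock library. The hsa-miR-590-3p library thus lay nearest to mock and cel-miR-67 furthest from it.

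Other immune lists held few differences. Of 34 listed chemokine genes 10 were measured, 1 was lower by 2-fold and 1 higher by 1.5-fold, with a median of -0.10. The lower one was Cxcl10, an interferon-inducible attractant of T cells, with 289 reads in mock and 85 under cel-miR-67, or 9.13 and 2.48 CPM, with 10.6 CPM under hsa-miR-590-3p and 2.81 CPM under hsa-miR-199a-3p. It was 3.68-fold lower (2.88 to 4.75), and the 4 libraries fell into a high pair, mock and hsa-miR-590-3p, and a low pair. Cx3cl1, fractalkine, had 38.8 and 59.2 CPM and was 1.53-fold higher (1.42 to 1.64), and Cxcl12, the chemokine with the highest level per length, had 139 and 163 CPM. Inflammatory cytokine and NF-kB genes had a median of -0.06 over 25 measured of 42 listed, with none past 2-fold. By 1.5-fold 2 were lower (8.0%), where 3.72% of all genes were. The 2 members were Saa3, an acute-phase protein (3.10 and 1.90 CPM), and Socs1, an inhibitor of JAK kinases (2.84 and 1.81 CPM). Csf1, the growth factor of macrophages and the member with the highest level per length, had 568 and 617 CPM, but with uniquely placed reads, 0.46% of its total, its log2 ratio was -0.43.

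Complement genes had a median of -0.18 over 13 measured of 19 listed. Lower were 1 by 2-fold (7.69%) and 4 by 1.5-fold (30.8%), where 1.22% and 3.72% of all genes were. C3ar1, the receptor for the fragment C3a, had 59 reads in mock and 26 under cel-miR-67, 2.46-fold lower (1.53 to 4.06). It is the member lower by 2-fold, and it passed the minimum through mock alone, so that its direction follows from the choice. C2, C1s1 and Cfb, proteases of the activation cascade, had 3.41, 2.53 and 1.90 CPM in mock and 1.78, 1.31 and 1.02 under cel-miR-67. All 3 were within 2-fold. Serping1, the inhibitor of the first complement protease and the member with the highest level per length, had 169 and 150 CPM.

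**Figure D3:**
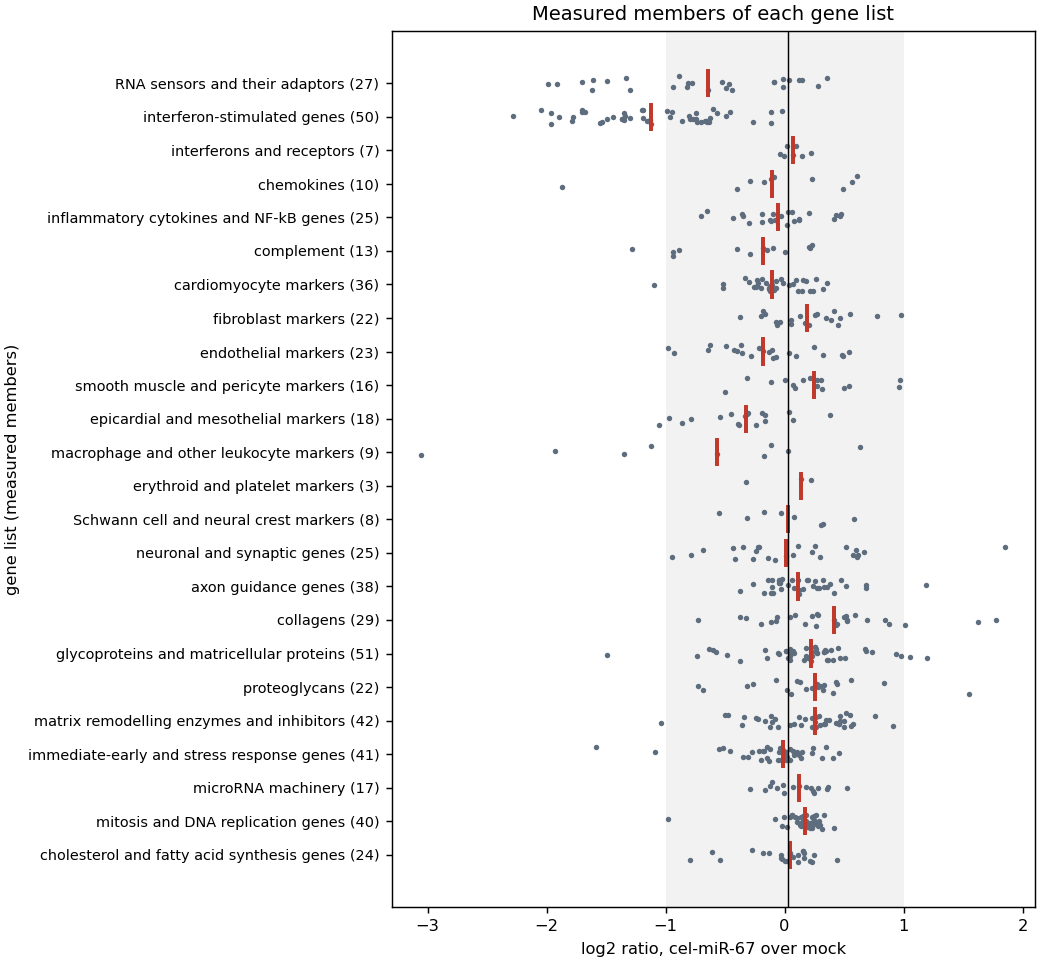
Log2 ratio of cel-miR-67 over mock (horizontal) for each measured member (points, with vertical scatter for legibility only) of 24 gene lists, with the list median as a red bar, the median of all genes as a black line and the range within 2-fold shaded. The median of the interferon-stimulated genes is -1.12, that of the RNA sensors -0.64 and that of the collagens 0.42, and nothing is read from that of the leukocyte markers, 4 of whose 9 members passed the minimum through mock alone.

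Markers of the labelled cell type were abundant in both controls. All 36 cardiomyocyte markers were measured, with a summed level of 92630 CPM in mock and 85040 under cel-miR-67, against 68610 under hsa-miR-590-3p and 69480 under hsa-miR-199a-3p. Actc1, cardiac actin, had the highest level per length, 7110 RPKM in mock and 6482 under cel-miR-67. The list had 12 members above and 24 below a ratio of 1, with a median of -0.10. Those below were 66.7%, where 45.5% of all genes were. None was higher by 1.5-fold and 1 was lower (2.78%), where 3.72% of all genes were. The lower member was Xirp2, which binds actin at the intercalated disc. It had 157 CPM in mock, 73.2 under cel-miR-67, 46.6 under hsa-miR-590-3p and 20.4 under hsa-miR-199a-3p. It was 2.14-fold lower under cel-miR-67 (2.04 to 2.25), but the log2 ratio of its uniquely placed reads, 0.608% of the total, was -0.82, short of 2-fold. At the other end, Tbx20, a cardiac transcription factor, had 837 and 1072 CPM.

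Transcripts of other heart cells were also present. The fibroblast markers summed to 17780 CPM in mock and 18640 under cel-miR-67, with Col1a1, the main fibrillar collagen, at 1065 and 1021 RPKM. The smooth muscle and pericyte markers summed to 6530 and 7177 CPM, the endothelial markers to 906 and 892 CPM and the epicardial and mesothelial markers to 759 and 594 CPM. In bulk RNA, fewer cells of a type and less RNA per cell cannot be told apart. Epicardial and mesothelial markers leaned lower, with 15 of 18 measured members below a ratio of 1 and a median of -0.32. Of all genes, 45.5% lay below 1. By 2-fold 1 member was lower (5.56%) and by 1.5-fold 4 (22.2%), where 1.22% and 3.72% of all genes were. Krt8, a keratin, had 33.0 CPM in mock, 15.8 under cel-miR-67 and 19.97 and 20.9 in the other libraries. Msln, mesothelin, had 92.1, 46.9, 72.1 and 84.3 CPM, and Upk1b, a uroplakin with the highest level per length of the list, 92.6, 53.6, 77.1 and 82.9 CPM. In all 3 genes the cel-miR-67 library was the lowest of the 4. Tbx18, an epicardial transcription factor, differed in the other direction with 83.3 and 109 CPM in the controls.

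Endothelial markers had a median of -0.19, with 4 of 23 measured members (17.4%) lower by 1.5-fold, where 3.72% of all genes were. None was lower by 2-fold. Ramp2, the partner of the adrenomedullin receptor, had 6.86 CPM in mock and 3.47 under cel-miR-67, Sox18, an endothelial transcription factor, 1.96 and 1.02, Emcn, endomucin, 67.1 and 43.0, and Nos3, the endothelial nitric oxide synthase, 3.48 and 2.25. Eng, endoglin, the member with the highest level per length, had 239.3 and 284.7 CPM, but the log2 ratio of its uniquely placed reads, 0.34% of the total, was -0.62. Smooth muscle and pericyte markers had a median of 0.24, with 2 of 16 (12.5%) higher by 1.5-fold, where 2.97% of all genes were. With uniquely placed reads the median was 0.13, and 2 members were higher and 1 lower by 1.5-fold. Notch3, a receptor of mural cells, had 17.3 CPM in mock, 33.8 under cel-miR-67, 41.7 under hsa-miR-590-3p and 40.6 under hsa-miR-199a-3p, and Myh11, smooth muscle myosin, had 29.4, 57.2, 52.3 and 69.7 CPM. For both genes mock was the lowest library, below all 3 mimic libraries. Of Myh11 reads 1.1% were unique, and by unique reads alone Myh11 fell below the minimum. Des, with the lowest ratio of the list, went the other way with 1407 and 995 CPM. Fibroblast markers had a median of 0.19, with Fbln1, fibulin-1 (10.9 and 21.5 CPM), and Dpt, dermatopontin (7.30 and 12.5 CPM), higher by 1.5-fold. They were 2 of 22 measured members (9.09%), where 2.97% of all genes were.

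Leukocyte markers were scarce and highest in mock. Their summed level over 35 listed genes was 37.7 CPM in mock, 21.2 under cel-miR-67, 20.2 under hsa-miR-590-3p and 23.4 under hsa-miR-199a-3p. Only 9 passed the minimum, 4 of them through mock alone, so that a difference in those 4 follows from the choice, and no count over the 9 is read as a result. Ctss, cathepsin S, the lysosomal protease of antigen-presenting cells, had 149 reads in mock and 19 under cel-miR-67, or 4.71 and 0.555 CPM, with 0.987 and 0.568 CPM in the other libraries. It was 8.49-fold lower (5.25 to 14.5), the lowest ratio of the comparison, and mock stood alone. Ctss passed the minimum through mock alone, so that its direction follows from the choice. Lyz2, lysozyme of macrophages, had 11.03, 4.32, 2.67 and 4.49 CPM and was 2.55-fold lower (2.10 to 3.12). Laptm5, a lysosomal protein of blood cells, had 61 and 17 reads, and Cd68, a macrophage glycoprotein, 65 and 32. Laptm5 and Cd68 also passed the minimum through mock alone. H2-Eb1, a class II chain, went the other way with 66 and 111 reads. Of the 35 markers 6 had 0 reads in both controls, among them the T-cell genes Cd3e and Cd3g and the B-cell genes Ms4a1 and Cd79b. The leukocyte markers and the interferon-stimulated genes were both highest in mock, but the former were as low under hsa-miR-590-3p as under cel-miR-67, while the latter were not. Their part in the interferon result was not tested.

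Matrix genes leaned higher under cel-miR-67. Over 4 lists, 144 of 174 genes were measured and 108 lay above a ratio of 1, with a median of 0.26, while 7297 of all 13380 genes lay above 1. By 2-fold 6 were higher and 2 lower, 1 of each measured through a single library, and by 1.5-fold 18 were higher and 8 lower. Of all genes, 0.628% were higher and 1.22% lower by 2-fold, and 2.97% and 3.72% by 1.5-fold. The collagens had 29 of 40 measured, 22 above a ratio of 1, a median of 0.42, 3 higher by 2-fold (0.628% of all genes were) and 7 higher by 1.5-fold (2.97% of all genes were). Of the 3, Col26a1 passed the minimum through cel-miR-67 alone, so that its direction follows from the choice. At a minimum of 5 CPM 1 collagen was higher by 2-fold and the collagen median was 0.28, beside 0.27 for the proteoglycans and 0.27 for the matrix remodelling enzymes. Longer transcripts leaned slightly higher over all genes, with a median of -0.02 in the shortest of 10 equal bins by length and 0.06 in the longest, and the collagen median was 0.39 after centring by length.

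Basement membrane collagens were among the higher ones. Col4a3 had 918 reads in mock and 2003 under cel-miR-67, or 29.0 and 58.5 CPM, with 35.6 CPM under hsa-miR-590-3p and 22.3 CPM under hsa-miR-199a-3p, and it was 2.01-fold higher (1.86 to 2.18). Its ratio lay just short of 2-fold under TMM scaling, at a log2 ratio of 0.99. Col4a4, its partner chain, had 42.9 CPM in mock, 78.8 under cel-miR-67, 63.3 and 54.6 in the other libraries, and was 1.84-fold higher (1.72 to 1.96). Both were highest under cel-miR-67. The main type IV chains Col4a1 and Col4a2, named with their values already seen, had 3624 and 5113 CPM and 2656 and 3767 CPM in mock and under cel-miR-67. Col19a1, a basement membrane-zone collagen, had 35 and 131 reads and was 3.46-fold higher (2.37 to 5.17), and Col26a1, listed in the files as Emid2, had 17 and 58 reads. In both of these mock was the lowest of the 4 libraries. The fibrillar Col1a1 had 5016 and 4810 CPM, and Col15a1, a basement membrane collagen, went the other way with 269 CPM in mock, 162 under cel-miR-67, 218 under hsa-miR-590-3p and 306 under hsa-miR-199a-3p.

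**Figure D4:**
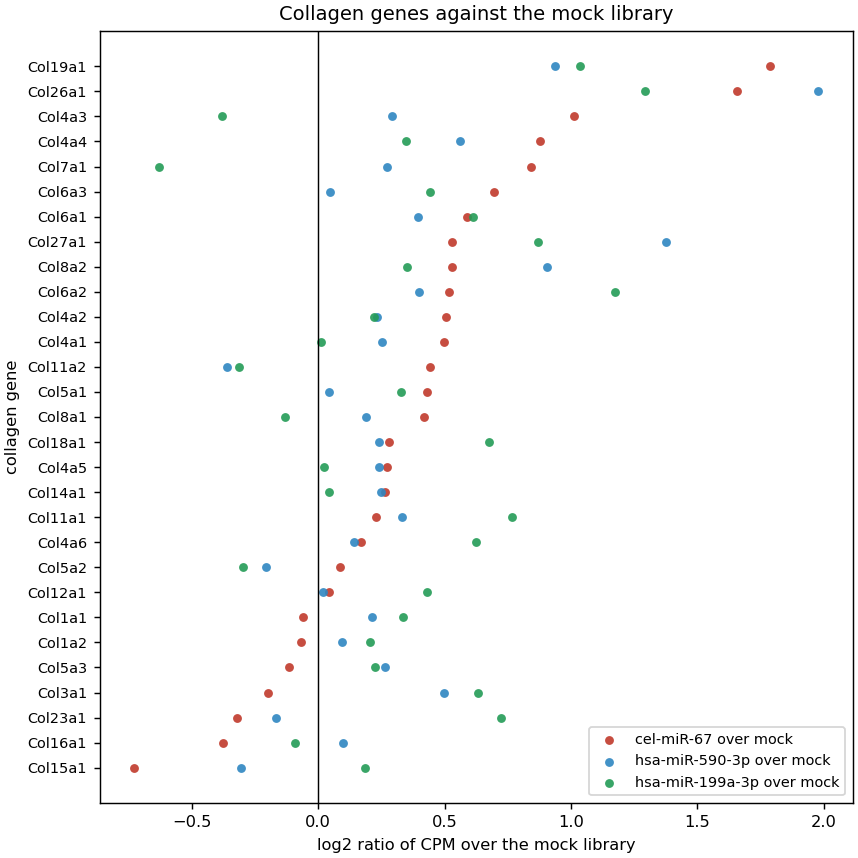
Log2 ratio of each mimic library over the mock library (horizontal) for the 29 measured collagen genes (vertical), with 1 point per library. The 3 points of a gene share the mock value, and the cel-miR-67 points lie above 0 in 22 genes, from Col19a1 down to Col12a1.

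Prelp, a leucine-rich repeat protein that anchors basement membranes, had the highest ratio of 22 measured proteoglycan genes. It had 434 reads in mock and 1375 under cel-miR-67, or 13.7 and 40.1 CPM, with 34.8 CPM under hsa-miR-590-3p and 56.4 CPM under hsa-miR-199a-3p. It was 2.93-fold higher than in mock (2.62 to 3.27), and mock stood apart from the 3 mimic libraries. Aspn, asporin, had 3.29 and 5.87 CPM. Agrn, agrin, which organises synapses at the muscle surface, had 198 CPM in mock, 120 under cel-miR-67, 210 under hsa-miR-590-3p and 217 under hsa-miR-199a-3p, and cel-miR-67 was the library apart. Hapln1, a hyaluronan link protein, had 4.84 and 3.01 CPM. Bgn, biglycan, the proteoglycan with the highest level per length, had 1867 and 2115 CPM.

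Of 51 measured glycoprotein and matricellular genes 40 lay above a ratio of 1 (78.4%), where 54.5% of all genes did, with a median of 0.22. By 2-fold 2 were higher (3.92%) and 1 lower (1.96%), where 0.628% and 1.22% of all genes were. Mfap4, a microfibril protein, had 122 reads in mock and 304 under cel-miR-67 and was 2.30-fold higher (1.86 to 2.86). Smoc2, a calcium-binding matrix protein, had 332 and 749 reads and was 2.08-fold higher (1.83 to 2.38). Ccn5, listed in the files as Wisp2, had 17.3 and 33.2 CPM. Spp1, osteopontin, which macrophages also make, was the member lower by 2-fold. It had 6.51 CPM in mock, 2.31 under cel-miR-67, 2.44 under hsa-miR-590-3p and 1.21 under hsa-miR-199a-3p, and here mock alone was high. Of Spp1 reads 0.0% were placed uniquely, and with unique reads no member of the list was lower by 2-fold. Ltbp1, which stores latent TGF-beta, had 167 and 107 CPM, and Sparc, the most abundant per length, 3476 and 3662. Matrix remodelling genes had a median of 0.26 over 42 measured members. Adamts5, an aggrecan-cleaving protease, had 118 CPM in mock, 222 under cel-miR-67, 179 under hsa-miR-590-3p and 153 under hsa-miR-199a-3p and was 1.88-fold higher (1.81 to 1.95), and Plau, urokinase, had 39.6 and 67.1 CPM. Timp1, an inhibitor of metalloproteases, was lower at 122 and 86.1 CPM.

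Outside the matrix lists, Itga8, the integrin chain that binds nephronectin, was among the most abundant higher genes, with 2556 reads in mock and 6058 under cel-miR-67, or 80.8 and 177 CPM, and 135 and 119 CPM in the other libraries. It was 2.19-fold higher (2.09 to 2.29), and cel-miR-67 was the highest library. Mrc2, an endocytic receptor for collagen, had 106 and 194 CPM. Gpx3, a secreted glutathione peroxidase, had 76.9 CPM in mock, 139 under cel-miR-67 and 58.5 and 60.1 in the other libraries, and Kcnj5, a subunit of the atrial acetylcholine-gated potassium channel, had 74.5, 134, 81.4 and 58.7. For Gpx3 and Kcnj5 cel-miR-67 alone was high, with mock near the other mimics. Of Gpx3 reads 0.0952% were unique, and by unique reads alone Gpx3 fell below the minimum.

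Neural-type genes did not move as a group. Over the neuronal and synaptic, axon guidance and Schwann cell lists, 71 of 144 genes were measured, 40 lay above a ratio of 1 and the median was 0.08. The 40 were 56.3% of those measured, where 54.5% of all genes lay above 1. By 2-fold 2 of the listed genes were higher and none lower, and by 1.5-fold 8 were higher and 3 lower. Of all genes, 0.628% were higher and 1.22% lower by 2-fold, and 2.97% and 3.72% by 1.5-fold. The lists do not hold every neural-type gene. Outside them, Rgma, a guidance molecule, was lower by 2-fold and Gfra2, a neurturin receptor, was higher by 2-fold, both given below. Gria1, a subunit of AMPA-type glutamate receptors, had 80 reads in mock and 315 under cel-miR-67, or 2.53 and 9.20 CPM, with 3.22 CPM under hsa-miR-590-3p and 8.41 CPM under hsa-miR-199a-3p. It was 3.64-fold higher (2.84 to 4.71), and the libraries formed a high pair, cel-miR-67 and hsa-miR-199a-3p, and a low pair. Of its reads 4.57% were unique, and by unique reads alone Gria1 fell below the minimum. No member of the neuronal list was then higher by 2-fold. Its level per length was low, 0.45 RPKM in mock and 1.62 under cel-miR-67, set against 48.0 and 41.8 RPKM for Ncam1, a neural cell adhesion molecule and the neuronal-list member with the highest level per length. Sema7a, a membrane-anchored semaphorin, had 203 and 501 reads, 6.42 and 14.6 CPM, and was 2.28-fold higher (1.93 to 2.70), with 7.81 and 3.77 CPM in the other libraries.

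Smaller differences among neural-type genes went both ways. Dbh, which makes noradrenaline, had 7.30 CPM in mock and 11.6 under cel-miR-67, and Gap43, a growth-cone protein, 2.18 and 3.33. Robo1, a receptor for Slit proteins, had 19.5 and 31.4 CPM, and Ntn4, a netrin, 36.4 and 58.5. Ret, the receptor for GDNF-family ligands, had 6.13 CPM in mock, 3.18 under cel-miR-67, 2.53 under hsa-miR-590-3p and 1.96 under hsa-miR-199a-3p, and Uchl1, a neuronal deubiquitinase, had 49.4, 30.8, 42.9 and 109. For Ret mock was the highest library, and for Uchl1 cel-miR-67 was the lowest. The Schwann cell list had 8 of 20 members measured, none past 1.5-fold, and Pmp22, a myelin protein, had 108 and 114 CPM.

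The genes with the highest ratios came mostly from none of these lists and were weakly expressed. Fam163a had 14 reads in mock and 63 under cel-miR-67, 4.16-fold higher (2.30 to 8.03), and Ceacam15, a carcinoembryonic antigen-related protein, had 14 and 54. Slc35f1, a solute carrier family member, had 72 and 302 reads, or 2.28 and 8.82 CPM, with 5.57 and 9.96 CPM in the other libraries, and was 3.87-fold higher (2.99 to 5.08). Slc35f1 was low in mock and higher in all 3 mimic libraries. Insc, an adaptor of spindle orientation, had 17 and 64 reads, and Ndst3, a heparan sulfate-modifying enzyme, 45 and 144. Fam163a, Ceacam15 and Insc passed the minimum through cel-miR-67 alone, so that their direction follows from the choice. Aldoc, the brain-type aldolase, had 155 and 436 reads, 4.90 and 12.7 CPM, with 4.50 CPM under hsa-miR-590-3p and 19.9 under hsa-miR-199a-3p. Hsd11b1, which regenerates active glucocorticoid, had 3.98 and 10.04 CPM, and Galnt15, a mucin-type glycosyltransferase, 2.94 and 7.53. Tekt5, a tektin, had 33 and 91 reads, Fam169b 36 and 104, and Plac9a 36 and 105, the last with 0.849% of reads unique and so uncertain.

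Some of the lowest ratios were in genes on none of the lists. Ndufa6, an accessory subunit of respiratory complex I, had 3146 reads in mock and 888 under cel-miR-67, or 99.4 and 25.9 CPM, with 79.5 CPM under hsa-miR-590-3p and 91.7 CPM under hsa-miR-199a-3p. It was 3.84-fold lower (3.56 to 4.14) with all reads unique, and the cel-miR-67 library stood alone. Sh3kbp1, an adaptor of receptor endocytosis, had 288 CPM in mock, 114 under cel-miR-67, 246 under hsa-miR-590-3p and 237 under hsa-miR-199a-3p, and was 2.52-fold lower (2.43 to 2.62), but its uniquely placed reads, 1.04% of the total over 3 records, gave a log2 ratio of -0.60. Canx, calnexin, a chaperone of the endoplasmic reticulum, had 555, 250, 588 and 451 CPM in the same order and was 2.22-fold lower (2.17 to 2.28). Rgma, a repulsive guidance molecule, had 163, 79.3, 163 and 188 CPM. In each of these abundant genes the other 2 mimic libraries lay nearer to mock than to cel-miR-67. Among weaker genes, Trim30a, an interferon-inducible TRIM protein, had 405 and 85 reads, Ifi202b, a DNA-binding interferon-inducible protein, 101 and 23, and Mthfs, a folate enzyme, 65 and 17. Trim30d had 72 and 15 reads, with 15.5% unique. Ifi202b, Mthfs and Trim30d passed the minimum through mock alone, so that their direction follows from the choice.

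To see which control differed from the rest, genes were counted in which 1 library lay at least 2-fold above or below the nearest of the other 3, over 13481 genes whose mean in the 4 libraries reached 1 CPM. The cel-miR-67 library stood apart on the low side in 52 genes and on the high side in 6. Mock stood apart on the low side in 25 genes and on the high side in 13. The hsa-miR-590-3p library did so in 5 and 5 genes, and the hsa-miR-199a-3p library in 179 on the low side and 163 on the high side. Of the 52 genes low in cel-miR-67 alone, 12 were RNA sensors or interferon-stimulated genes. This was 15.8% of the 76 genes of those lists, where 0.386% of all genes were low in cel-miR-67 alone.

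Several of the 52 are named here with their values already seen, for levels over 10 CPM in mock. Pigu, a subunit of the complex that attaches GPI anchors, had 35.9 CPM in mock, 9.98 under cel-miR-67, 31.0 under hsa-miR-590-3p and 31.1 under hsa-miR-199a-3p, and was 3.60-fold lower than in mock (3.18 to 4.07). Pop5, a protein of RNase P, had 13.5, 3.85, 13.2 and 17.2 CPM, and Mrps12, a mitochondrial ribosomal protein, 15.99, 5.08, 17.0 and 16.6. The 3 other libraries lay near each other in these genes. Kcne1, a subunit of the slow cardiac potassium channel, had 53.9, 16.6, 39.2 and 83.2 CPM, F11r, the junctional adhesion molecule A, 67.9, 23.7, 61.9 and 66.7, and Rtn3, a reticulon of the endoplasmic reticulum, 202, 99.1, 207 and 292. Whether the 52 transcripts hold sites for the seed of cel-miR-67 was not analysed here.

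Among the genes high in mock alone were more genes of blood cells, also named with their values seen. Mpeg1, the pore-forming protein of macrophages, had 3.25 CPM in mock, 1.05 under cel-miR-67, 1.25 under hsa-miR-590-3p and 0.723 under hsa-miR-199a-3p. Nckap1l, an actin regulator of blood cells, had 2.53, 1.08, 1.02 and 0.800 CPM, and Olr1, a receptor for oxidised lipoprotein, 14.7, 6.25, 4.38 and 3.54. These genes were chosen as high in mock alone, so that the 3 mimic libraries lie below mock by the choice. Of those low in mock alone, Gfra2, a receptor for neurturin, had 2.85, 7.09, 5.75 and 8.80 CPM, and Ptn, pleiotrophin, a secreted growth factor, 4.84, 10.1, 13.1 and 12.2. Gfra2 and Ptn were chosen as low in mock alone, so that the cel-miR-67 library lies with the other 2 mimics by the choice.

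**Figure D5:**
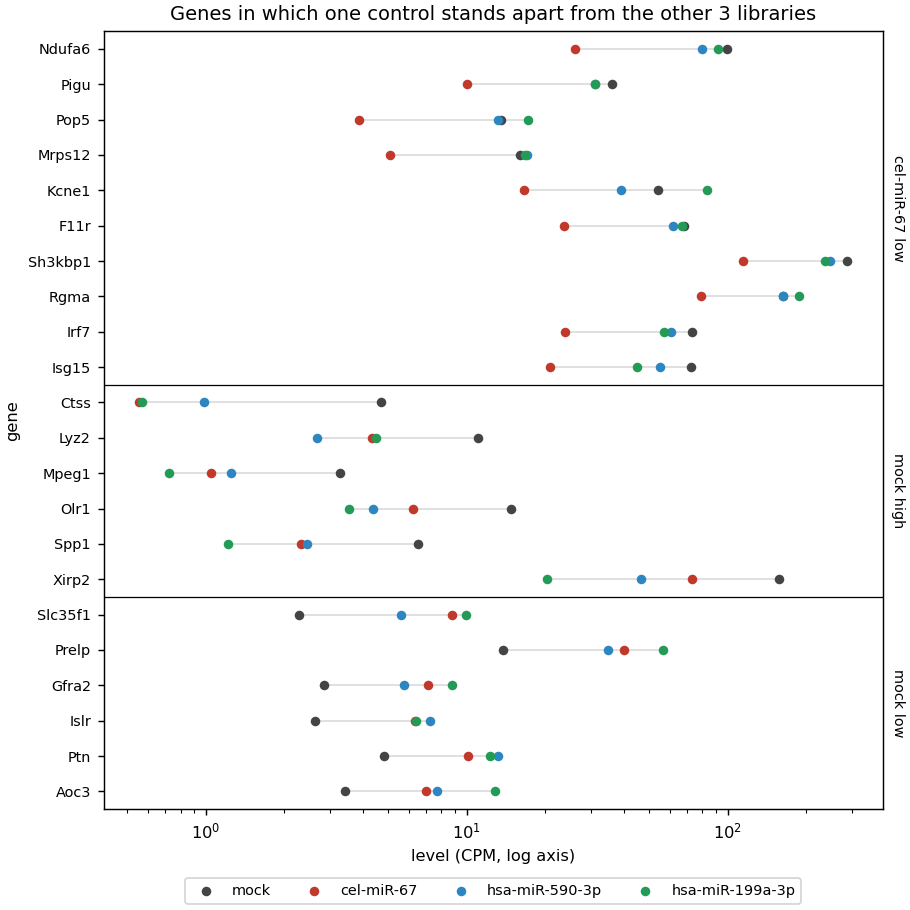
Level in CPM (horizontal, log axis) of selected genes (vertical) in each of the 4 libraries, in 3 blocks: low in cel-miR-67 alone, high in mock alone and low in mock alone. By the choice of genes, the red point (cel-miR-67) lies left of the other 3 in the upper block. In the lower blocks the dark point (mock) lies to one side, also by the choice.

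Lists chosen as context had medians between -0.01 and 0.17. Of 40 mitosis and DNA replication genes 36 (90.0%) lay slightly above a ratio of 1, where 54.5% of all genes lay above it. The list median was 0.17. The list summed to 1665 CPM in mock and 1842 under cel-miR-67, against 3098 under hsa-miR-590-3p and 3537 under hsa-miR-199a-3p. Ccnb1, cyclin B1, was the member past 1.5-fold, with 44.5 CPM in mock, 22.5 under cel-miR-67, 85.5 under hsa-miR-590-3p and 93.2 under hsa-miR-199a-3p. Of its reads 28.4% were unique, and these gave a log2 ratio of -0.96, beside -0.98 with all reads. Plk1, a mitotic kinase, had the highest ratio at 30.2 and 40.4 CPM. None of 17 genes of the microRNA machinery differed by 1.5-fold, and their median was 0.13. Tnrc6c, a silencing partner of Argonaute, had 50.9 and 73.2 CPM, and Snd1, a nuclease of the silencing complex, 234 and 191.

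Among 41 immediate-early and stress genes the median was -0.01. By 2-fold 2 were lower (4.88%), where 1.22% of all genes were, and 1 of the 2 was measured through mock alone. Mt2, a metallothionein, had 487 reads in mock and 248 under cel-miR-67, or 15.4 and 7.24 CPM, with 17.4 CPM under hsa-miR-590-3p and 7.33 under hsa-miR-199a-3p. It was 2.13-fold lower (1.82 to 2.49), and the libraries formed a high and a low pair. Hspa5, the main chaperone of the endoplasmic reticulum, had 884 and 1101 CPM. Of 24 measured cholesterol and fatty acid synthesis genes 2 were lower by 1.5-fold (8.33%), where 3.72% of all genes were. Scd2, a fatty acid desaturase, had 1070 CPM in mock, 616 under cel-miR-67, 1127 under hsa-miR-590-3p and 744 under hsa-miR-199a-3p, and Stard4, a cholesterol carrier, had 32.0, 21.0, 33.0 and 33.6. In both genes cel-miR-67 was the lowest library, and the list median was 0.05.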

How the data were processed

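RNA was sequenced from 4 cultures of CD1 mouse cardiomyocytes, 1 library each, grouped by the treatment in the labels. Per the file headers, each deposited file lists 36065 RefSeq transcript records, each with a total read count, a unique read count, its length and the RPKM of the authors. CASAVA 1.8 and mm8 are named, without a role, in the submitters' processing notes. What mapped the reads is not given in the sources. Current symbols came from a GRCm38.p6 table by accession for 27926 records (77.4%). Total reads were summed per symbol, 6249 symbols having several records, and divided by the library total. The share of unique reads of such symbols also falls where variants overlap.

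Log2 ratios used a prior count of 0.5, and printed folds are ratios of CPM. With 0 residual degrees of freedom no test was run. Levels between genes were compared by RPKM. Scaling by TMM and by median of ratios (edgeR 4.0.16 in R 4.3.3, for scaling factors only), totals without ribosomal RNA, unique reads, minimums of 5 CPM and none, a prior count of 5, the authors' RPKM and records not summed were tried, and centring by length was added after the data were seen. Python 3.11.15, numpy 2.4.6, pandas 2.3.3, scipy 1.17.1 and matplotlib 3.10.9 were used, and the ratio script was tested on simulated data.

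The comparison, the 24 gene lists and the rule for named genes were chosen with earlier results of these data known. Named were the 15 highest and 15 lowest ratios past 2-fold with at least 50 reads in the higher library, the 5 highest and 5 lowest with a mean of at least 100 CPM, up to 4 members per list and direction past 1.5-fold, the highest, lowest and most abundant member of each list, and Gapdh and Actb. Pseudogenes, gene models, Y-linked genes and genes not listed as protein-coding were counted but not named, and some genes are not reported here.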

Additional observations from a re-analysis of the deposited data

How the results depend on the processing

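The counts of genes past a fold depended on the minimum level and on summing records. A minimum of 5 CPM left 39 genes higher and 77 lower by 2-fold and 180 and 262 by 1.5-fold. With no minimum these counts were 1748, 1606, 2718 and 2612, and with records not summed per gene 361, 417, 1014 and 1150. The share of 2-fold differences that were higher, 34.0%, was 52.1% with no minimum and 46.4% with records not summed. The other settings (TMM, median of ratios, totals without ribosomal RNA, unique reads, a prior count of 5, the authors' RPKM and centring by length) gave between 74 and 86 higher and between 135 and 174 lower. The interferon-stimulated genes had between 22 and 27 members lower by 2-fold and 0 higher under the settings run on lists. The collagen median was 0.28 at a minimum of 5 CPM and 0.28 with no minimum. Of 48 named genes past 2-fold, 47 or 48 stayed past it where all could be measured, and 37 of 40 did with unique reads, the exceptions being Sh3kbp1, Xirp2 and Col4a3. With unique reads 111 of the 130 genes named by the rule stayed above the minimum. With 1 library per condition no library could be left out. No paired analysis was possible because each condition has 1 library. Genes under about 50 reads have wide counting intervals.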
